A study of Homo sapiens with 21 samples.

Results

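The 10 immediate early genes FOS, FOSB, JUN, JUNB, ATF3, EGR1, EGR3, NR4A1, IER2 and IER3 were followed by name through a count table of 61268 features, and all 10 of 10 passed the filter on low counts among 19655 features tested. They were measured by poly-A RNA-seq in 21 libraries of H9, a human embryonic stem cell line, that carried a TRE3G (doxycycline-responsive promoter) 2xFLAG-GSX2 WT transgene. GSX2 is a homeobox factor that patterns the lateral ganglionic eminence (LGE), where striatal neurons are born, and every culture was differentiated toward an LGE-like state with LDN193189, SB431542 and XAV939, then LDN193189 and SB431542, then IWP2 and Activin A. The 7 groups held 3 libraries each: day 10 (no doxycycline), and cultures 12, 24 or 48 h later that either had no doxycycline (NoDox) or had received 100 ng/mL doxycycline for the first 12 h (Dox). The Dox groups at 24 and 48 h therefore follow withdrawal of the drug. All groups carry the transgene in 1 cell line and no group had doxycycline without it, so the drug and the transgene cannot be told apart. Whether replicates were separate cultures is not stated in the labels, so each p-value reflects the spread among these samples alone, which may be technical.

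Immediate early genes are transcribed within minutes of a stimulus, without new protein synthesis, when kinases such as ERK phosphorylate factors already bound to their promoters, among them SRF with its ELK partners and CREB. Their mRNAs are short-lived, so their level follows recent signalling. In neural progenitors growth factors such as FGFs drive them, in neurons synaptic activity does, and handling or stress of a culture can raise them as well.

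Libraries held 14.4 to 33.8 M counts. The transgene, 2xFLAG_GSX2_WT in the count table, was at 745 to 951 CPM (counts relative to library size, scaled by TMM) in the Dox libraries at 12 h, 19.5 ± 5.80 (SD, n = 3) at 24 h and 0.877 to 0.970 at 48 h, against 0.0457 to 0.523 CPM in the libraries without doxycycline. All 8 telencephalic progenitor markers, all 6 LGE markers and all 6 neuronal markers were at 1 CPM or more in some library of every group. Of 5 markers of pluripotent cells 3 were below 1 CPM in every library, and TDGF1 was at 0 in 6 of the 7 groups. The summed level of the 5 was still 114 to 179 CPM over the libraries, nearly all of it from the markers other than these 3. Replicates differed by more than sampling noise (chi-square per degree of freedom 1.85 to 26.8), and the Dox 12 h replicate 3 (16.7 and 26.8 against its group) and day 10 replicate 1 (10.8 and 14.5) stood apart.

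All 10 members moved at 12 h, and the promoters of 5 are shown. These 5 are among the 6 that hold TGACG or its reverse, which is part of the CREB site, so that they share it follows from the choice. Only EGR1 also holds the letters that SRF binds. IER2, which holds the reverse CGTCA, is not printed. NR4A1 and ATF3, which hold neither in the window searched, are not printed either. Each line is the 150 bases before the RefSeq start site, 5′ to 3′ in the gene's direction, from GRCh38.p14: FOS at chr14:75278678-75278827 (plus strand), FOSB at chr19:45467846-45467995 (plus), JUN at chr1:58784048-58784197 (minus), JUNB at chr19:12791336-12791485 (plus) and EGR1 at chr5:138465329-138465478 (plus). Capitals mark the CArG box (the letters SRF binds), the CRE core TGACG or its reverse CGTCA (part of the CREB site), and the TATA box TATAAA.
FOS: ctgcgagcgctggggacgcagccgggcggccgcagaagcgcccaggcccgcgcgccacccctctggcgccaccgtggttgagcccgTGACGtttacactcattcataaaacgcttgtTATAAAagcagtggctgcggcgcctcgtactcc
FOSB: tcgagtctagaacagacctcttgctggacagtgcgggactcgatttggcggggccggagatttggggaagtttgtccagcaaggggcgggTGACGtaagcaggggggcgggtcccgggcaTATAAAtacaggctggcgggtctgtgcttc
JUN: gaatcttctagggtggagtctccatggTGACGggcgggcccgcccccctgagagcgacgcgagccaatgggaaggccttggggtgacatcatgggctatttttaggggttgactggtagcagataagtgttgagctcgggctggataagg
JUNB: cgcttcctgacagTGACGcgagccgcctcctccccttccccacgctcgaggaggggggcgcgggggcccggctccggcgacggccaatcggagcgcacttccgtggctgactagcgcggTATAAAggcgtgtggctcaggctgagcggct
EGR1: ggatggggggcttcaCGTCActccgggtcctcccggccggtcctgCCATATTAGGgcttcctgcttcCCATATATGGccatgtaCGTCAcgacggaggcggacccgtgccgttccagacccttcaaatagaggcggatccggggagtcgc
RefSeq promoters of 8 of the 10 members were matched, and EGR3 and IER3 had no entry. From 250 bases before to 50 after the start, on both strands, the CRE core TGACG occurred in 6 of 8 members (FOS, FOSB, JUN, JUNB, EGR1 and IER2) and in 24.6% of 35114 promoters. A CArG box occurred in 1 of 8, EGR1, whose 2 copies began at -105 and -83, and in 1.29% of promoters. TATAAA occurred in 4 of 8 (FOS, FOSB, JUNB and ATF3) and in 11.5% of promoters, while the ETS letters CCGGAA occurred in 2 of 8 (FOSB and IER2) and in 17.2%. No member's window held the full CRE TGACGTCA (1.85% of promoters), which contains the CRE core, the AP-1 letters TGACTCA or TGAGTCA (4.95%), the EGR letters GCGTGGGCG or GCGGGGGCG (5.77%) or the homeodomain letters TAATTA (4.84%). These matches are a description of this window and show neither binding nor its absence elsewhere.

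At 12 h of doxycycline all 10 members fell against NoDox cultures of the same time, and in each the 3 Dox libraries lay below the 3 NoDox libraries. Of all genes tested, 19.9% passed lower, 19.8% passed higher and 39.7% passed in either direction (edgeR quasi-likelihood test, adjusted p below 0.05), and the replicates of the groups lay wholly apart in 46.9%, with Dox below in 23.1%. The members' median log2 fold change was -0.85, from -2.30 to -0.39, and the median over all genes tested was 0.01. The members were chosen with earlier results of these data known, so their count beside these shares is a description and not a test.

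The AP-1 genes came down to different extents. FOS, whose protein pairs with JUN proteins to form the AP-1 factor, was at 44.7, 57.0 and 71.7 CPM in the NoDox libraries and at 11.9, 22.5 and 23.9 CPM with doxycycline. The highest Dox library thus lay well below the lowest control, and the log2 fold change was -1.59 ± 0.22 (approximate SE, n = 3 per group), a 3.01-fold lower level (adjusted p = 2.08e-05). FOSB, the FOS relative known for its long-lived truncated form in neurons, was at 40.6, 51.1 and 58.3 CPM against 9.84, 18.6 and 17.9 CPM and fell by 1.71 ± 0.25 (adjusted p = 4.42e-05). In both FOS and FOSB the first Dox replicate was the lowest of the 6 libraries, and without it FOS was at -1.33 and FOSB at -1.47 on the log2 scale.

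JUN, the DNA-binding partner of FOS and a substrate of the JNK kinases, was tighter between replicates: 65.3, 65.9 and 63.5 CPM without and 30.4, 36.2 and 36.2 CPM with doxycycline. It fell by 0.92 ± 0.07 (1.90-fold, adjusted p = 9.31e-12). JUNB, a JUN relative, was at 13.9, 13.1 and 12.6 CPM against 8.94, 9.85 and 8.21 CPM and fell by 0.55 ± 0.10 (adjusted p = 3.91e-05). ATF3, a stress-induced member of the CREB/ATF family that can also join AP-1 dimers, was at 33.5, 30.4 and 34.7 CPM against 15.1, 19.5 and 17.9 CPM and fell by 0.91 ± 0.12 (adjusted p = 1.95e-06). The groups did not overlap in any of these genes.

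Of the EGR zinc finger factors, EGR3 moved furthest of all members. Its NoDox libraries held 33, 78 and 69 counts (1.68, 3.56 and 3.03 CPM) and its Dox libraries 9, 17 and 15 counts (0.322, 0.654 and 0.765 CPM). The fall of 2.30 ± 0.31 (adjusted p = 6.93e-07) therefore rests on few reads. EGR1, a widely used read-out of ERK signalling, was at 47.2, 60.0 and 72.4 CPM against 25.5, 42.0 and 42.3 CPM, a fall of 0.72 ± 0.20 (adjusted p = 0.00927). Its groups lay close, with 42.3 CPM in the highest Dox and 47.2 CPM in the lowest NoDox library, and without NoDox replicate 3 the change was -0.56 with adjusted p = 0.0518.

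NR4A1, the orphan nuclear receptor also called Nur77, was at 105, 118 and 132 CPM without and 63.3, 75.4 and 67.4 CPM with doxycycline, a fall of 0.78 ± 0.08 (1.72-fold, adjusted p = 3.45e-09). IER3, a growth factor and stress-induced protein that acts on cell survival, was at 46.5, 54.0 and 50.8 CPM against 24.2, 31.2 and 38.2 CPM and fell by 0.70 ± 0.13 (adjusted p = 0.000148). IER2, a small nuclear protein induced by growth factors, moved least: 79.5, 82.8 and 81.9 CPM became 60.6, 64.9 and 60.7 CPM. That fall of 0.39 ± 0.06 was small but larger than the spread between replicates (adjusted p = 1.8e-06).

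The Dox 12 h libraries also differed in composition. The summed level of the 8 telencephalic progenitor markers was 2750 to 3050 CPM there against 7000 to 7040 CPM in NoDox at 12 h, and that of the 6 neuronal markers 887 to 1070 against 1600 to 1860 CPM. That of 4 neural crest markers was 310 to 368 against 779 to 828 CPM. The sum of the 6 LGE markers was 346 to 356 against 149 to 203 CPM, of which GSX2 held 277 to 296 against 7.08 to 10.6 CPM, and 4 of the 6 passed lower. TMM factors were 1.12 to 1.14 against 1 in the NoDox 12 h libraries. Their part in the fall of the members was not tested, and in bulk RNA fewer cells of a type and less RNA per cell cannot be told apart. Scaling by library totals alone moved the median of all genes to 0.19, with 7340 genes higher and 2213 lower in place of 3898 and 3912, and still left all 10 members lower with a median of -0.67. IER2 then fell by 0.21 (adjusted p = 0.00273) in place of 0.39.

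**Figure D1:**
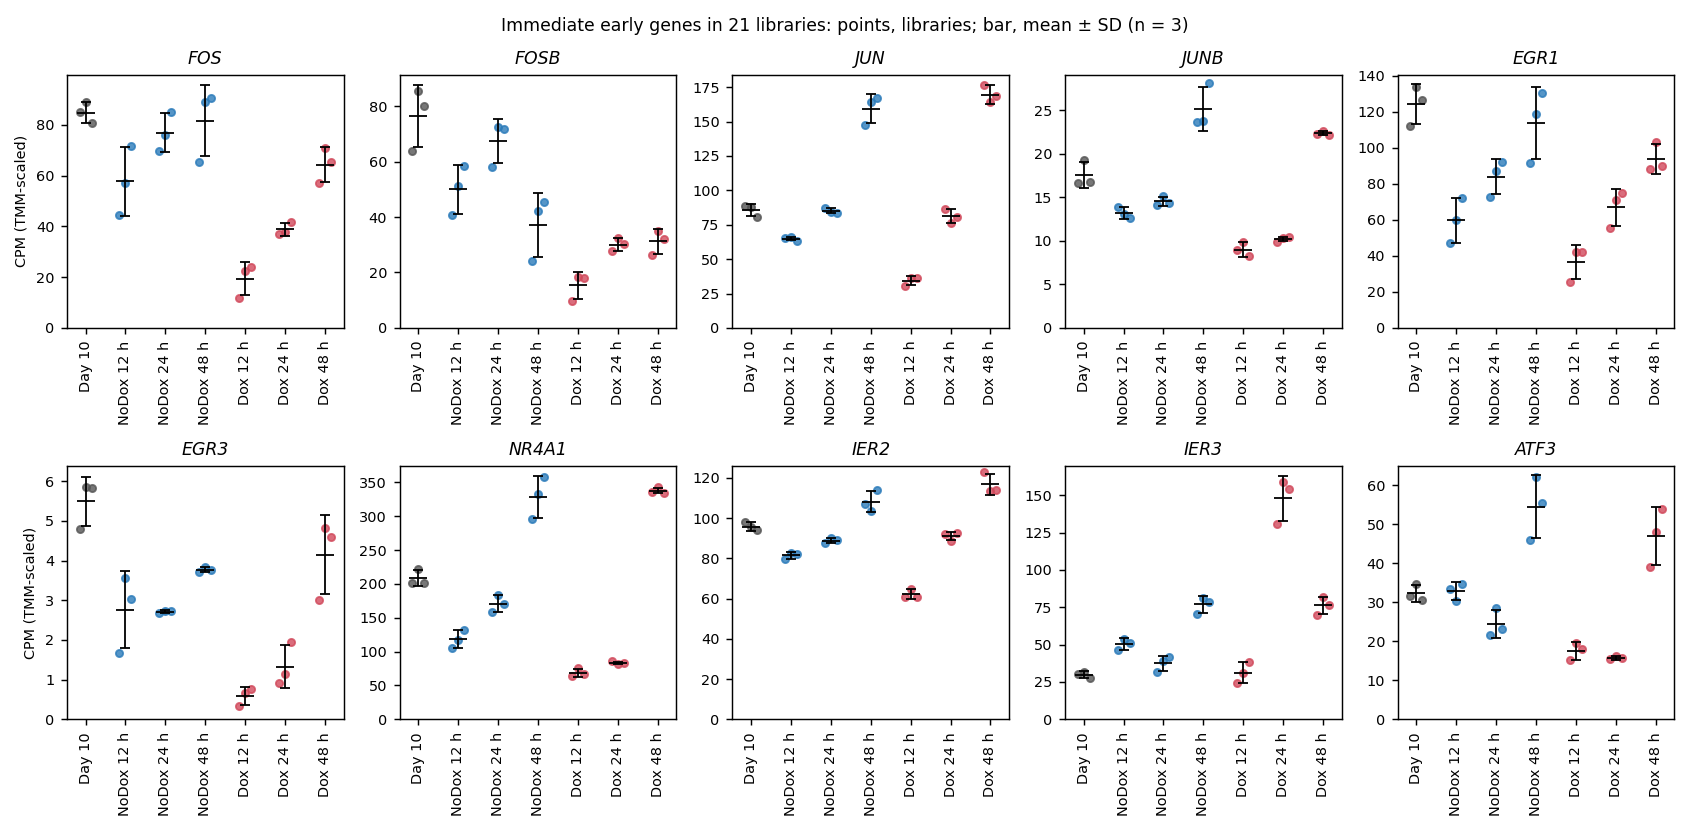
Level of each immediate early gene in CPM (linear axis from 0) in the 21 libraries, by group; points are libraries and bars the mean ± SD (n = 3). The Dox 12 h group is the lowest of the 7 for 8 members, day 10 is the lowest for IER3 and Dox 24 h for ATF3, and IER3 reaches 131 to 159 CPM in the Dox 24 h libraries.

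At 24 h, after withdrawal, the members no longer moved as 1 block: 6 stayed below NoDox, 1 was above it and 3 did not pass. Among all genes tested 16.9% passed lower and 17% higher, 33.9% in either direction, and 7 members had the groups wholly apart (51.9% of genes). The members' median was -0.57 and that of all genes 0.00.

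FOS was at 69.7, 75.9 and 85.2 CPM without and at 37.0, 38.0 and 41.8 CPM with doxycycline, a difference of -0.98 ± 0.20 (adjusted p = 0.00131). FOSB was at 58.1, 72.3 and 71.9 CPM against 27.6, 32.4 and 30.2 CPM, -1.16 ± 0.23 (adjusted p = 0.001). Both were thus still at a lower level in every Dox library. JUNB (14.2, 15.2 and 14.4 against 9.89, 10.4 and 10.4 CPM) was at -0.51 ± 0.09, with adjusted p = 7.91e-05. ATF3 (21.5, 28.5 and 23.2 against 15.4, 16.2 and 15.6 CPM) differed by -0.63 ± 0.13, with adjusted p = 0.000338. JUN, by contrast, was at 87.2, 84.4 and 83.8 CPM against 86.8, 76.6 and 80.9 CPM, so the groups overlapped and the difference was -0.06 (95% interval -0.21 to 0.08, adjusted p = 0.506).

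NR4A1 was lower in Dox at 24 h: 159, 184 and 170.5 CPM without and 85.6, 81.8 and 82.6 CPM with doxycycline, a difference of -1.04 ± 0.08 (adjusted p = 1.08e-11). EGR3 held 92, 65 and 60 counts in NoDox and 22, 26 and 43 counts in Dox libraries and differed by -1.04 ± 0.27 (adjusted p = 0.00271). EGR1 overlapped between groups (73.0, 87.1 and 92.0 against 55.5, 70.9 and 74.8 CPM), and its difference of -0.32 had an interval of -0.74 to 0.09 (adjusted p = 0.22). With the replicate number as a block, EGR1 was at -0.33 with adjusted p = 0.00594.

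IER3 went the other way. Its NoDox libraries were at 31.7, 39.2 and 41.4 CPM and its Dox libraries at 131, 159 and 154 CPM, the highest level of the gene in the series. The difference of 1.99 ± 0.12, 3.97-fold, passed with adjusted p = 5.47e-11. IER2 was at 87.4, 89.98 and 88.9 CPM against 92.1, 88.6 and 92.4 CPM, overlapping, with a difference of 0.04 (interval -0.08 to 0.15, adjusted p = 0.662). The summed level of 6 endothelial markers was 37.5 to 46.6 CPM in Dox 24 h libraries against 6.47 to 7.67 CPM in NoDox 24 h, with 3 of the 6 below 1 CPM in every Dox 24 h library. Of the 4 of these markers tested 1 passed, KDR, at 37.9 ± 4.58 against 2.08 ± 0.342 CPM, and the median over the 4 was 0.35. The summed level of 4 epithelial markers was 366 to 476 against 192 to 217 CPM, and 3 of the 4 passed higher. The part of these markers in the level of IER3 was not tested.

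**Figure D2:**
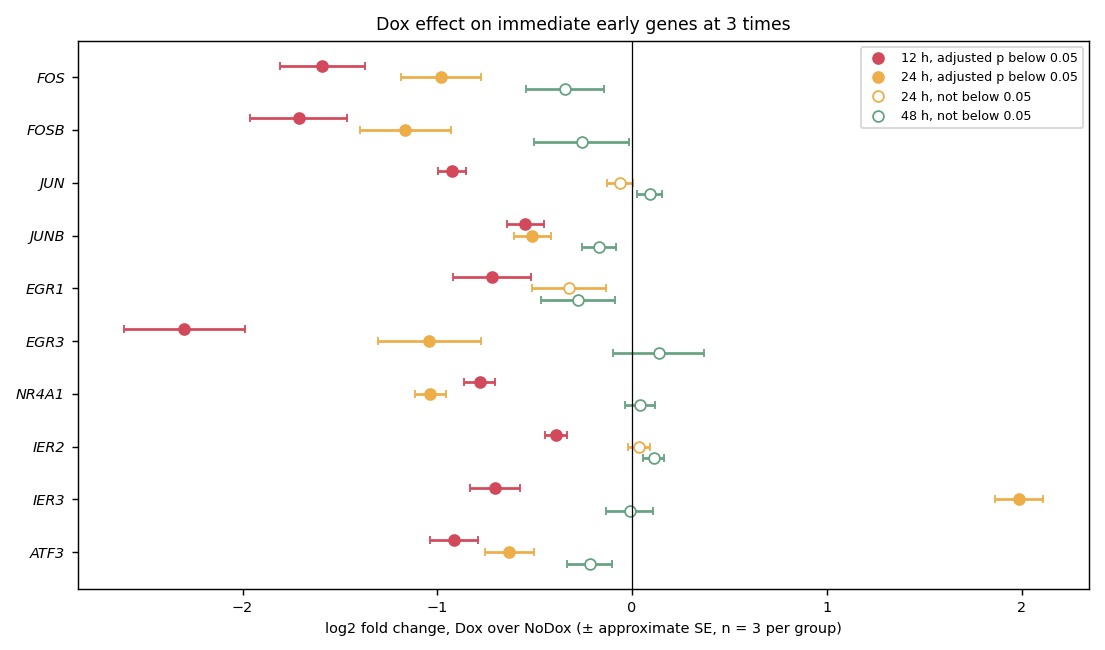
Log2 fold change of Dox over NoDox (horizontal axis) for each immediate early gene at 12, 24 and 48 h, with approximate SE (n = 3 per group); filled points have adjusted p below 0.05. All 10 points at 12 h lie left of 0 and are filled, IER3 at 24 h lies at 1.99, and all 10 points at 48 h are open.

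By 48 h no member passed in either direction (edgeR, 0 of 10, against 9.23% higher, 8.94% lower and 18.2% in either direction over all genes tested), none had an unadjusted p below 0.05, and DESeq2 also called none. The members' median was -0.09 against 0.01 for all genes. The groups overlapped in 9 of the 10 members (36% of genes were wholly apart, 18.9% with Dox higher and 17.1% lower). In JUNB they did not, with 23.7, 23.7 and 28.1 CPM in NoDox and 22.2, 22.7 and 22.2 CPM in Dox libraries, a difference of -0.17 (interval -0.36 to 0.02, adjusted p = 0.19).

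How large a difference these libraries leave possible at 48 h varies between members. For FOS (65.4, 88.9 and 90.5 against 57.0, 70.7 and 65.2 CPM) the difference was -0.34 with an interval of -0.78 to 0.09. FOSB had -0.26, with an interval of -0.78 to 0.27, EGR1 had -0.28 (-0.69 to 0.13), and EGR3 had 0.14 (-0.36 to 0.64). The intervals were narrower for NR4A1 (0.04, from -0.12 to 0.20), JUN (0.09, from -0.05 to 0.23), IER2 (0.11, from -0.01 to 0.23), IER3 (-0.01, from -0.27 to 0.25) and ATF3 (-0.22, from -0.47 to 0.03). The widest intervals were those of FOS, FOSB, EGR1 and EGR3. With the replicate block EGR1 passed at 48 h, at -0.26 with adjusted p = 0.0458.

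Whether the Dox effect differed between times was tested as an interaction. From 12 to 24 h it moved up in 4 members and down in none (16.1% and 14.8% of all genes, 30.9% in either direction). IER3 changed by 2.69 ± 0.18 (adjusted p = 2.04e-10), from -0.70 to 1.99, and is the only member whose effect passed in opposite directions at these times. JUN changed by 0.86 ± 0.10 (adjusted p = 5.06e-08), from -0.92 to -0.06, and IER2 by 0.43 ± 0.08 (adjusted p = 0.000103), from -0.39 to 0.04, or by 0.23 with library totals (adjusted p = 0.0203). EGR3 changed by 1.26 ± 0.42 (adjusted p = 0.0238), and this did not pass without Dox 12 h replicate 1 (0.94, adjusted p = 0.1), Dox 24 h replicate 3 (0.89, adjusted p = 0.137) or NoDox 12 h replicate 2 (1.04, adjusted p = 0.0783), nor with library totals (1.07, adjusted p = 0.0506).

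For 6 members no difference between the 12 h and 24 h effects was shown. FOS differed by 0.61 ± 0.30 (adjusted p = 0.138), FOSB by 0.55 ± 0.34 (adjusted p = 0.251) and EGR1 by 0.40 ± 0.28 (adjusted p = 0.317), and these passed with the replicate block (adjusted p = 0.0286, 0.0103 and 0.0249), which brought the count to 7. JUNB differed by 0.04 (interval -0.25 to 0.33) and ATF3 by 0.28 (interval -0.10 to 0.66). NR4A1 differed by -0.25 ± 0.11 (adjusted p = 0.0835), and it passed without Dox 12 h replicate 1 (-0.31, adjusted p = 0.0394) or NoDox 12 h replicate 3 (-0.34, adjusted p = 0.0242).

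From 24 to 48 h the effect moved up in 2 members and down in 1 (12.7% and 13.1% of all genes, 25.8% in either direction). NR4A1 changed by 1.08 ± 0.11 (adjusted p = 1.9e-08), from -1.04 to 0.04, and IER3 by -2.001 ± 0.17 (adjusted p = 3.98e-08), from 1.99 to -0.01. EGR3 changed by 1.18 ± 0.35 (adjusted p = 0.0139), and by 0.96 with adjusted p = 0.055 without Dox 24 h replicate 1. FOSB (0.91 ± 0.34, adjusted p = 0.061) and JUNB (0.34 ± 0.13, adjusted p = 0.0515) narrowly missed the threshold. Without NoDox 48 h replicate 3 both passed, FOSB at 1.07 (adjusted p = 0.0389) and JUNB at 0.43 (adjusted p = 0.0189). With the Wald test of DESeq2 both passed as well (adjusted p = 0.0395 and 0.0491). ATF3 (0.41 ± 0.17, adjusted p = 0.0794) passed without Dox 48 h replicate 1, NoDox 24 h replicate 1 or NoDox 48 h replicate 2 (adjusted p = 0.0242, 0.0412 and 0.032). These interactions share the 24 h libraries with those above.

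Within the Dox cultures themselves, 8 members were higher at 24 h than at 12 h and none lower (21.5% and 21.1% of all genes, 42.6% in either direction). IER3 rose by 2.25 ± 0.13, JUN by 1.25 ± 0.07, EGR3 by 1.22 ± 0.35 and FOS by 1.02 ± 0.22. ATF3 (-0.15, adjusted p = 0.368) and JUNB (0.18, adjusted p = 0.154) did not pass. From 24 to 48 h 8 members passed higher, and IER3 alone came down (29.4% and 29.5% of all genes, 58.9% in either direction). These were not the same 8: JUNB and ATF3 rose only in this later step, and FOSB and IER3 only in the earlier one. NR4A1 rose by 2.02 ± 0.08, EGR3 by 1.65 ± 0.26, ATF3 by 1.58 ± 0.13 and JUNB by 1.13 ± 0.09, while FOSB moved by 0.05 ± 0.24 (adjusted p = 0.865). Levels also moved between 24 and 48 h in NoDox cultures, where ATF3 rose by 1.16 ± 0.12, IER3 by 1.05 ± 0.12, NR4A1 by 0.94 ± 0.08 and JUN by 0.90 ± 0.07. JUNB rose there by 0.79 ± 0.09 and IER2 by 0.29 ± 0.06, FOSB fell by 0.85 ± 0.23, and FOS, EGR1 and EGR3 did not pass. FOSB was the only member that passed lower in Dox at 48 h than at day 10 (31.2 ± 4.56 against 76.4 ± 11.1 CPM, -1.30 ± 0.24, adjusted p = 0.000244). FOS (-0.40, adjusted p = 0.107), EGR1 (-0.41, adjusted p = 0.0844) and EGR3 (-0.42, adjusted p = 0.115) were also below day 10 but did not pass. In that comparison with day 10, 6 members passed higher and 1 lower (28.2% and 27% of all genes, 55.2% in either direction).

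Levels also moved in cultures that never received doxycycline. At 12 h, NoDox was below day 10 in 7 members and above it in 1 (16.3% and 15.5% of all genes, 31.8% in either direction), with a median of -0.48 against -0.01 for all genes. EGR1 stood at 112, 134 and 127 CPM at day 10 and 47.2, 60.0 and 72.4 CPM at 12 h, and fell by 1.05 ± 0.19 (adjusted p = 0.000633). NR4A1 fell from 202, 222 and 202 CPM, by 0.82 ± 0.08 (adjusted p = 5.25e-09), and EGR3 from 4.79, 5.86 and 5.83 CPM, by 0.99 ± 0.23 (adjusted p = 0.00133). In these 3 genes every 12 h library lay below every day 10 library. The libraries lay wholly apart in 9 members, 8 of them lower (43.8% of all genes, 22.5% lower).

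Among the AP-1 genes and IER2, JUN fell from day 10 to 12 h by 0.40 ± 0.07, JUNB by 0.41 ± 0.09 and IER2 by 0.23 ± 0.06. FOS fell by 0.55 ± 0.20 with adjusted p = 0.0478, a call that was lost with DESeq2 size factors (adjusted p = 0.051), limma on the deposited normalized values (0.0579), no filter (0.121) and without any 1 of day 10 replicates 1, 2 and 3 (adjusted p = 0.0924, 0.12 and 0.0765) or of NoDox 12 h replicates 1 and 2 (adjusted p = 0.184 and 0.109). FOSB missed the threshold (-0.61 ± 0.23, adjusted p = 0.0513) and passed without day 10 replicate 1 (adjusted p = 0.0427) or NoDox 12 h replicate 3 (adjusted p = 0.0476), with the replicate block (adjusted p = 0.000154) and with only the groups compared (adjusted p = 0.00377). IER3 rose by 0.75 ± 0.13, from 30.5, 31.7 and 27.7 CPM, and ATF3 moved by 0.02 (interval -0.24 to 0.28).

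All 6 heat shock genes listed, chaperones induced by protein stress, were higher in NoDox at 12 h than at day 10, with a median of 0.75. Of all genes tested 15.5% passed higher in that comparison and 31.8% in either direction. HSPA1A stood at 22.5 ± 0.766 against 15.4 ± 1.92 CPM and DNAJB1 at 114 ± 2.16 against 84.99 ± 9.44 CPM. Between Dox and NoDox at 12 h 1 of the 6 passed, DNAJB1 at 0.18 ± 0.07 (adjusted p = 0.0495), against 39.7% of all genes in either direction. The part of stress or handling in the levels of the members was not tested.

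At 24 h, NoDox was below day 10 in 4 members and above in none (8.47% and 8.84% of all genes, 17.3% in either direction), with a median of -0.23. The libraries lay wholly apart in 7 members, 6 of them lower (36% of all genes, 18.5% lower). EGR3 fell by 1.03 ± 0.22 (adjusted p = 0.00173). EGR1 was at -0.57 ± 0.19 with its libraries wholly below day 10, and missed the threshold (adjusted p = 0.0509). It passed with the replicate block (adjusted p = 8.15e-05), the fit of only the groups compared (0.00191), the Wald test of DESeq2 (0.0246) and DESeq2 size factors (0.0496). The other passing falls were small: ATF3 by 0.41 ± 0.12 (adjusted p = 0.0206), NR4A1 by 0.29 ± 0.08 (adjusted p = 0.00957) and JUNB by 0.27 ± 0.09 (adjusted p = 0.0367). Without day 10 replicate 2 or NoDox 24 h replicate 1 none of these 3 passed (adjusted p from 0.0643 to 0.215), and without NoDox 24 h replicate 3 neither ATF3 (0.0719) nor JUNB (0.0947) did. JUNB was also lost without NoDox 24 h replicate 2 (adjusted p = 0.0523), with library totals (0.0565), limma on the deposited normalized values (0.0503), no filter (0.122) and only the groups compared (0.0669). IER3, at 0.32 with adjusted p = 0.104, passed higher without NoDox 24 h replicate 1 (0.43, adjusted p = 0.0405).

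By 48 h the uninduced cultures had 6 members above day 10 and 2 below (21.4% and 20.2% of all genes, 41.7% in either direction), with a median of 0.35 against 0.00 for all genes. IER3 rose by 1.36 ± 0.13 (2.57-fold, adjusted p = 5.6e-08), to 70.8, 81.1 and 78.8 CPM. JUN rose by 0.90 ± 0.07 (adjusted p = 3.55e-11), from 88.4, 88.1 and 80.4 to 147, 164 and 167 CPM, and ATF3 by 0.75 ± 0.12, to 46.1, 62.2 and 55.4 CPM. NR4A1 rose by 0.66 ± 0.08, to 295, 333 and 357 CPM, JUNB by 0.52 ± 0.09 and IER2 by 0.18 ± 0.06 (adjusted p = 0.0116). IER2 did not pass without NoDox 48 h replicate 3 (adjusted p = 0.0785), with library totals (0.10, adjusted p = 0.168), with no filter (0.0913) or with only the groups compared (0.0681). In these 6 genes, IER3, JUN, ATF3, NR4A1, JUNB and IER2, no 48 h library overlapped day 10 (24.6% of all genes lay wholly above it).

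FOSB parted from FOS in the uninduced cultures at 48 h. It fell by 1.04 ± 0.23 (adjusted p = 0.00208), from 64.0, 85.3 and 79.9 CPM at day 10 to 24.1, 42.2 and 45.5 CPM, while FOS overlapped (-0.06, interval -0.48 to 0.37). EGR1 overlapped as well (-0.13, interval -0.54 to 0.28). EGR3 fell by 0.55 ± 0.22 with adjusted p = 0.0474, which rose to 0.135 with limma on the deposited normalized values and to between 0.0907 and 0.129 without day 10 replicate 2 or 3 or any 1 of NoDox 48 h replicates 1, 2 and 3. The comparisons with day 10 share its 3 libraries, and the NoDox libraries also serve as controls of the Dox comparisons.

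Ordered by mean CPM, the 7 groups separated differently for each member. NR4A1 had the most resolved order: Dox 48 h (338 ± 4.22) and NoDox 48 h (329 ± 31.2) did not differ beyond their spread, and each later step, to day 10 (208 ± 11.7), NoDox 24 h (171 ± 12.4), NoDox 12 h (118 ± 13.2), Dox 24 h (83.3 ± 2.02) and Dox 12 h (68.7 ± 6.11), passed. In JUN the pair at 48 h (Dox 169.7 ± 6.61, NoDox 159 ± 10.6) stood above day 10, NoDox 24 h and Dox 24 h (85.6 ± 4.49, 85.1 ± 1.81 and 81.4 ± 5.08), which did not differ as neighbours. Below them came NoDox 12 h (64.9 ± 1.22) and then Dox 12 h (34.3 ± 3.33), each a passing step.

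FOS ran without a passing step from day 10 (84.8 ± 4.05) through NoDox 48 h (81.6 ± 14.03), NoDox 24 h (76.9 ± 7.78) and Dox 48 h (64.3 ± 6.92) to NoDox 12 h (57.8 ± 13.5), and then by 2 passing steps to Dox 24 h (38.9 ± 2.55) and Dox 12 h (19.4 ± 6.57). For FOSB, from day 10 through NoDox 24 h (67.4 ± 8.06), NoDox 12 h (50.01 ± 8.91), NoDox 48 h (37.3 ± 11.5) and Dox 48 h to Dox 24 h (30.1 ± 2.40), no neighbours differed, and 1 step passed, to Dox 12 h (15.4 ± 4.85). EGR1 likewise had 1 passing step, the last, from NoDox 12 h (59.9 ± 12.6) to Dox 12 h (36.6 ± 9.58). Above it lay day 10 (124 ± 11.04), NoDox 48 h (114 ± 19.97), Dox 48 h (93.9 ± 8.24), NoDox 24 h (84.0 ± 9.84) and Dox 24 h (67.1 ± 10.2). EGR3 ran from day 10 (5.49 ± 0.608) through Dox 48 h (4.15 ± 0.990), NoDox 48 h (3.77 ± 0.0569), NoDox 12 h (2.76 ± 0.971) and NoDox 24 h (2.72 ± 0.0309) without a passing step, then by 2 steps to Dox 24 h (1.33 ± 0.546) and Dox 12 h (0.580 ± 0.230).

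Of the remaining members, JUNB ran from NoDox 48 h (25.2 ± 2.53) and Dox 48 h (22.4 ± 0.261) through day 10 (17.5 ± 1.51), NoDox 24 h (14.6 ± 0.518) and NoDox 12 h (13.2 ± 0.652) to Dox 24 h (10.2 ± 0.283) and Dox 12 h (9.0002 ± 0.825). Its 2 groups at 48 h, its NoDox 24 h and 12 h groups, and its last 2 groups did not differ as neighbours. ATF3 was highest in NoDox 48 h (54.5 ± 8.07) and Dox 48 h (47.0 ± 7.54), which did not differ, then NoDox 12 h (32.9 ± 2.22) and day 10 (32.3 ± 2.14), which did not, then NoDox 24 h (24.4 ± 3.60), Dox 12 h (17.5 ± 2.22) and Dox 24 h (15.7 ± 0.420), of which the last 2 did not. IER2 spanned 1.88-fold, the narrowest range of the members, from Dox 48 h (117 ± 5.21) to Dox 12 h (62.1 ± 2.47). Its steps from NoDox 48 h (108 ± 5.38) to day 10 (95.8 ± 2.15) and from NoDox 12 h (81.4 ± 1.70) to Dox 12 h passed, and those among day 10, Dox 24 h (91.0 ± 2.10), NoDox 24 h (88.8 ± 1.28) and NoDox 12 h did not.

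IER3 had an order of its own: Dox 24 h (148 ± 14.9), then both groups at 48 h (NoDox 76.9 ± 5.42, Dox 76.2 ± 5.98, not differing), NoDox 12 h (50.4 ± 3.76), NoDox 24 h (37.4 ± 5.09), Dox 12 h (31.2 ± 6.98) and day 10 (30.0 ± 2.03). The last 3 did not differ as neighbours, so the 12 h Dox level of IER3 lay near that of day 10. Compared per length, in RPKM (CPM per kilobase of the exonic length in the count table), EGR1 led at day 10 with 39.6 RPKM, followed by IER2 (31.1), NR4A1 (28.6), FOS (26.6), JUN (23.6), IER3 (22.2), FOSB (13.8), JUNB (9.58), ATF3 (8.09) and EGR3 (1.09). This order depends on the length used: in CPM NR4A1 stood above EGR1 at day 10 (208 ± 11.7 against 124 ± 11.04). The length was 7295 bases for NR4A1 and 3137 for EGR1. With doxycycline at 12 h, IER3 (23.1) and IER2 (20.2) led, and FOSB (2.78) and EGR3 (0.115) were at the bottom. At 24 h IER3 reached 109.5 RPKM with doxycycline, against 27.7 without.

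Beyond the 10 members, 29 of 32 other immediate early genes listed were tested. At 12 h 20 passed lower and 2 higher (19.9% and 19.8% of all genes tested), with a median of -0.80. NR4A2, a receptor related to NR4A1, fell from 4.37 ± 0.332 to 0.620 ± 0.193 CPM (-2.85 ± 0.23). MYC, the growth regulator, fell from 8.96 ± 1.08 to 1.72 ± 0.0645 CPM (-2.38 ± 0.16), CCN1, a secreted matrix protein, from 236 ± 18.1 to 47.3 ± 3.84 CPM (-2.32 ± 0.07), and PHLDA1, a growth factor-induced protein, from 20.4 ± 1.64 to 4.86 ± 0.725 CPM (-2.06 ± 0.11). ARC, a synaptic gene of the same class, did the opposite, at 6.38 ± 0.882 against 3.43 ± 0.108 CPM.

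At 24 h this list had 11 genes lower, 8 higher (16.9% and 17% of all genes tested) and a median of -0.03. Relatives of NR4A1 and of the EGR members were among the lower genes, NR4A2 at -2.21 ± 0.22, NR4A3 at -1.76 ± 0.17 and EGR2, another EGR factor, at -1.33 ± 0.36. NPAS4, a neuronal activity factor, differed by -1.91 ± 0.37, at 0.306 ± 0.123 against 1.16 ± 0.159 CPM. At 48 h 4 were lower and 3 higher, among them KLF4 at -0.72 ± 0.21 and MYC at 0.48 ± 0.12. Of all genes tested 8.94% passed lower, 9.23% higher and 18.2% in either direction at that time.

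Lists of genes that sit next to the members in the pathway share some genes with each other. Like the members, they were chosen with earlier results of these data known. Their counts stand against 19.8% higher and 19.9% lower of all genes tested at 12 h, 17% and 16.9% at 24 h, and 9.23% and 8.94% at 48 h. Of 12 ERK feedback genes, inhibitors and targets that ERK signalling itself induces, 10 passed lower at 12 h (median -0.85) and 10 higher at 24 h (median 1.37). DUSP6, the ERK phosphatase, stood at 7.13 ± 1.24 against 43.5 ± 6.07 CPM at 12 h and at 80.8 ± 6.52 against 12.8 ± 1.61 CPM at 24 h. At 24 h FOS, FOSB, JUNB, EGR3, NR4A1 and ATF3 were thus lower in the same Dox libraries in which these feedback genes, and IER3, were higher. Of 21 genes of the MAP kinase route 5 passed higher and 3 lower at 12 h, and 4 and 6 at 24 h, and the 8 of 21 that passed at 12 h are near the 39.7% of all genes. FGFR2, an FGF receptor, was at 53.6 ± 2.38 against 14.4 ± 2.39 CPM at 24 h.

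Of 16 transcription factors that act on these promoters 4 passed higher and 4 lower at 12 h, with a median of 0.01. SRF fell by 0.45 ± 0.07 at 12 h and was at -0.25 ± 0.07 at 24 h, while ELK3, a partner of SRF, was higher by 0.93 ± 0.12, 2.74 ± 0.13 and 0.86 ± 0.13 at 12, 24 and 48 h. Among 11 cytoskeletal and matrix targets of SRF and its MRTF partners 8 passed lower and none higher at 12 h, with a median of -0.44, and 4 lower and 2 higher at 24 h. Of 8 factors that control mRNA decay 5 passed lower at 12 h, among them ZFP36L2, a decay factor for AU-rich mRNAs, at -0.71 ± 0.09, and 2 higher at 24 h, ZFP36L2 then at 1.16 ± 0.09. Of 15 dimer partners and corepressors tested 7 passed lower and 3 higher at 12 h.

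Of 11 genes of the ATF4 stress response 6 passed higher and 2 lower at 12 h, with a median of 0.40. CHAC1, which degrades glutathione, rose by 1.21 ± 0.15, and DDIT4, an inhibitor of mTORC1, fell by 1.45 ± 0.09. ATF3, which this response can induce, fell at the same time. Among 9 late activity-regulated genes 5 passed lower and 2 higher at 12 h, and 4 lower and 2 higher at 24 h. BDNF, a neurotrophin, was at -3.51 ± 0.30 at 12 h and -4.64 ± 0.39 at 24 h, when it stood at 0.0879 ± 0.0472 against 2.29 ± 0.213 CPM. That Dox mean lies below the level of 3 counts in these libraries (0.123 to 0.137 CPM), so the size of the 24 h difference rests on very few reads.

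**Figure D3:**
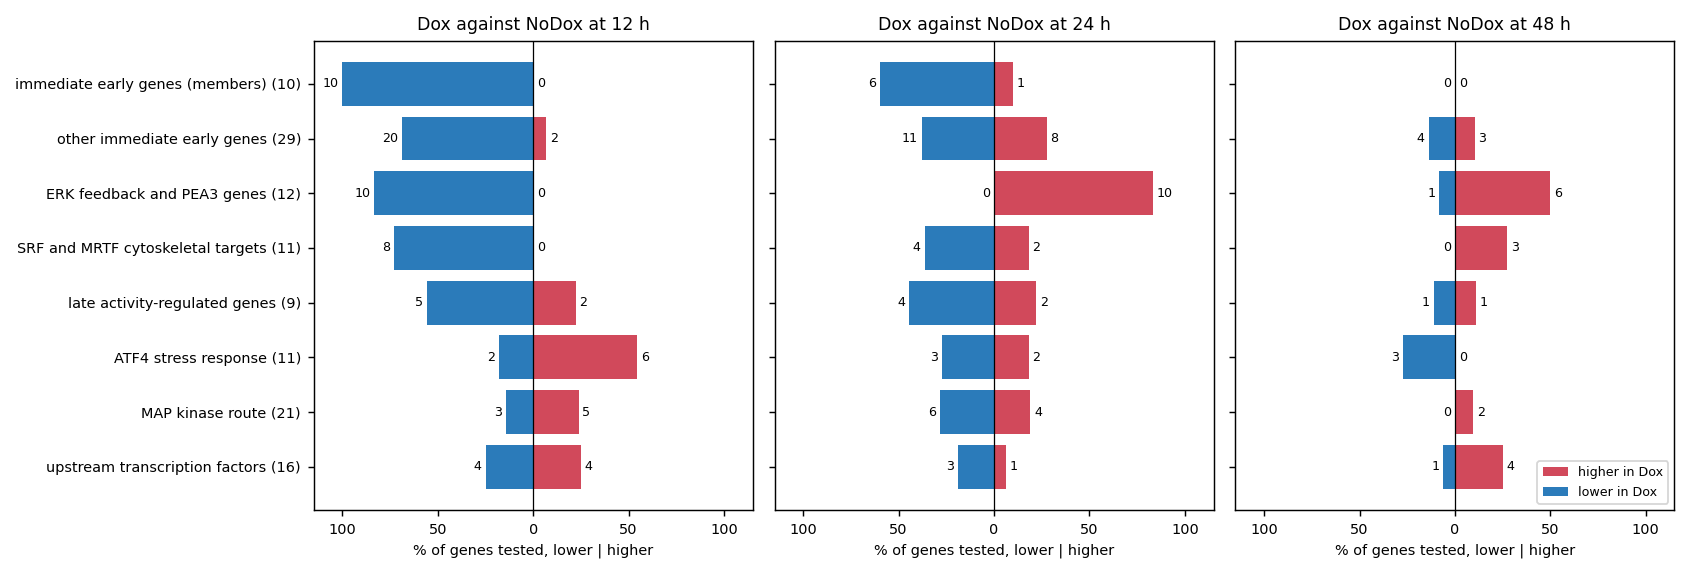
Share of the genes tested in each list (number in parentheses) that passed lower (left) or higher (right) in Dox at 12, 24 and 48 h, in percent, with the number of genes beside each bar. At 12 h all 10 immediate early genes and 10 of 12 ERK feedback genes are on the lower side, and at 24 h 10 of 12 ERK feedback genes are on the higher side while 6 of the 10 members are lower.

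Members deviated together in some libraries of a group. In Dox 12 h replicate 1 all 10 members lay below their group mean, with a median of -0.27 (log2 CPM), and in replicate 2 of that group all 10 lay above it, with a median of 0.15. NoDox 48 h replicate 1 had all 10 below, with a median of -0.13. The largest deviation was that of FOS in Dox 12 h replicate 1 (-0.64), and EGR3 lay at -0.62 in NoDox 12 h replicate 1. The median deviation of the members in replicate 1 was below 0 in all 7 groups, from -0.27 to -0.04. Across the 21 libraries, as deviations from group means, FOS, FOSB and EGR1 correlated at 0.89 to 0.92 with each other, whereas JUNB and FOS correlated at 0.03; these are descriptions, since libraries within a group share their deviation from 1 mean.

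**Figure D4:**
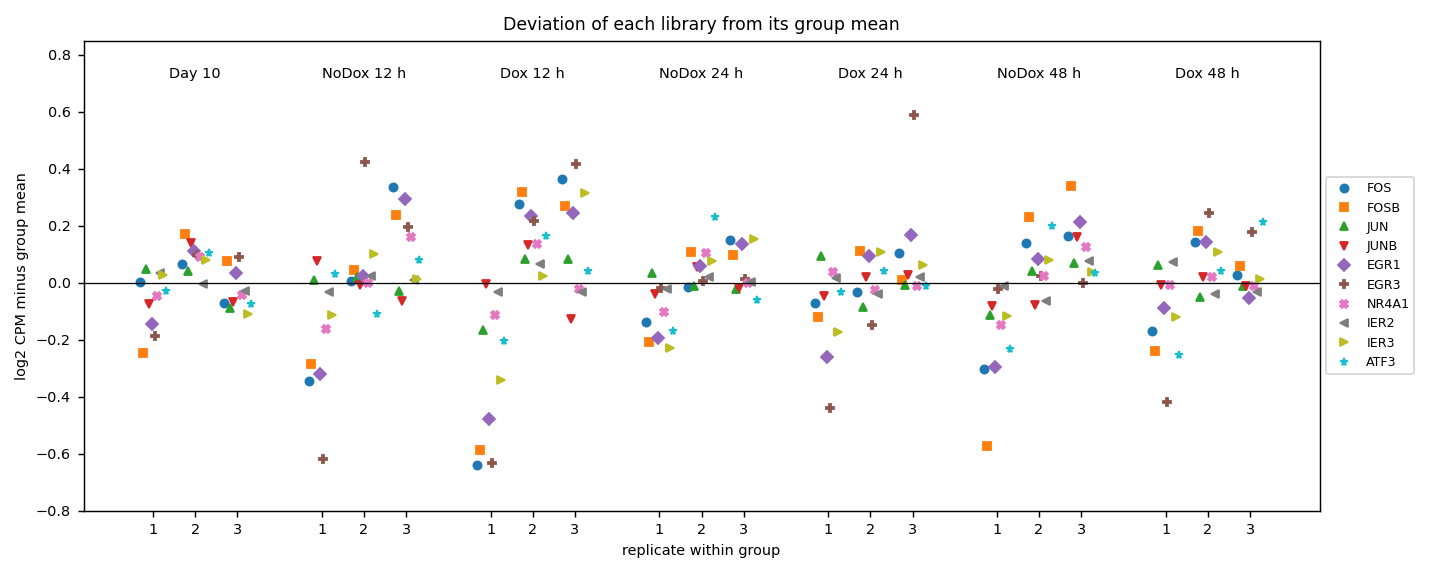
Deviation of each member's log2 CPM from its group mean (vertical axis) in each library, by group and replicate number; each symbol is a gene. All 10 symbols lie below 0 in Dox 12 h replicate 1 and in NoDox 48 h replicate 1, and all 10 above 0 in Dox 12 h replicate 2.

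Over the 21 libraries, the genes with the pattern most like each member's were ranked by the Pearson correlation of log2 CPM among 14689 genes, as a description of libraries that share groups. JUNB and NR4A1 were among each other's 3 nearest genes (0.98), with COL5A2 and FBXW11 near both. IER2 was nearest to JUN (0.98), EGR3 had FOS among its 3 nearest (0.94), and so had EGR1 (0.92). FOS itself was nearest to FEZF1-AS1 (0.95), FOSB to MOB3B (0.89), JUN to MSMO1 (0.98), EGR1 to GPBP1L1 (0.95) and EGR3 to AP1S2 (0.96). ATF3 was nearest to HBEGF (0.96), a growth factor of the EGF family, and IER3 to SLC2A1 (0.94), the glucose transporter, followed by TMED10 and VDAC1.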

How the data were processed

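Poly-A libraries were made with the NEBNext Ultra II Directional kit, per the labels' protocols. The table of counts deposited by the authors holds whole reads for each gene (build hg38); STAR 2.7.9, Subread 2.0.3 and DESeq2 (no version) appear as tools in the submitters' processing notes. Which annotation and strand setting were used is not given in the sources used here, so a gene's reads may include those of an overlapping antisense gene. A deposited table of signal values holds the authors' normalized counts, which equal the count over 1 factor for each sample.

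The main test was the edgeR 4.0.16 quasi-likelihood F test (robust; R 4.3.3) on all 7 groups together, after TMM scaling and filterByExpr, with Benjamini-Hochberg adjustment over all 19655 features and a threshold of 0.05. It had 14 residual degrees of freedom, and the biological coefficient of variation was 7.24%. Besides the 8 comparisons, all 21 pairs of groups were fitted for the order of levels. An SE is the absolute log2 fold change divided by the square root of F, and intervals are 95%. The limit that 0 counts allow was 0.0886 to 0.208 CPM by library, from 3 counts, which covers counting error only.

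The text names all 10 members, up to 4 genes of each list with the largest passing change in each Dox comparison, and further list genes with their values. The members and lists were chosen with earlier results of these data known. Alternatives were scaling by DESeq2 size factors or library totals, the Wald test of DESeq2 1.42.0, limma 3.58.1 on log2 of the deposited normalized count + 1, no filter, a fit of the compared groups alone, a replicate block, testing against a log2 change of 1, and leaving out each replicate.

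The labels number replicates 1 to 3 without naming what a number shares. Deviations of same-numbered Dox and NoDox libraries correlated above 0.1 in all 3 pairs only at 24 h, and there only over genes averaging 10 CPM or more (0.253, 0.122 and 0.115). Over all genes the 24 h values were 0.0616, 0.0359 and 0.0312. At 10 CPM or more the 48 h values were 0.310, 0.213 and 0.0634, and the 12 h values 0.0722, 0.0884 and -0.149. Same-numbered NoDox and day 10 libraries correlated there at 0.255, 0.0413 and 0.248 (12 h), 0.287, 0.0119 and 0.288 (24 h), and 0.0885, -0.144 and 0.217 (48 h). These values do not settle whether libraries of 1 number share a source, and the main test left the number out. On simulated data with known changes, the 12 h Dox effect was recovered for 95% of genes changed by 1 on the log2 scale and 99% of those changed by 2. The interaction of 12 and 24 h was recovered for 87% and 99% (19187 genes, 10 false calls). The simulation changed 100 genes of each size, none with a low mean count, in the Dox 12 h group alone. Each gene had the spread typical of its level. In the data 39.7% of genes passed at 12 h, and FOS, FOSB and EGR1 varied by 33.8%, 31.5% and 26.2% of their mean in Dox 12 h libraries. The recovery rates therefore do not carry over to these members.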

Additional observations from a re-analysis of the deposited data

Results flagged for a closer look

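The effect of doxycycline on some members differed between times by a test of the difference itself (edgeR interaction, n = 3 per group). From 12 to 24 h the log2 effect moved by 0.86 for JUN, the AP-1 partner of FOS, by 1.26 for EGR3, by 0.43 for IER2 and by 2.69 for IER3. From 24 to 48 h it moved by 1.18 for EGR3, by 1.08 for NR4A1 and by -2.001 for IER3. The 2 sets of differences share the 24 h libraries. In groups of 3 libraries no single library was tested for standing apart from its group.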

How the results depend on the processing

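At 12 h all 10 members stayed lower in Dox under each alternative that kept the test against no change, and 9 to 10 with a replicate left out. Testing against a log2 change of 1 left 3 lower at 12 h (FOS, FOSB and EGR3) and 0 lower at 24 h, where IER3 stayed higher. It also left 0 higher and 0 lower in NoDox against day 10 at 12 h and 48 h, and 0 lower at 24 h. In the difference of the Dox effect it left 1 higher from 12 to 24 h. From 24 to 48 h it left 0 higher, while IER3 stayed lower.

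With the replicate block 7 members were higher in the difference from 12 to 24 h in place of 4, and 5 in place of 2 from 24 to 48 h (with FOS, FOSB and ATF3). It gave 1 lower in Dox at 48 h (EGR1), 1 higher in NoDox at 24 h (IER3), and 7 in place of 6 lower in Dox at 24 h (EGR1). In NoDox against day 10 it gave 8 in place of 7 lower at 12 h (FOSB) and 5 in place of 4 at 24 h (EGR1). From 24 to 48 h, DESeq2's Wald test and the fit of only the groups compared gave 4 higher each. Library totals gave 1 lower from 12 to 24 h (NR4A1, -0.45), no filter gave 1 higher in NoDox at 24 h (IER3), and limma on the deposited normalized values gave 1 lower in NoDox at 48 h.

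Values that changed sign were near 0 and none of them passed. With library totals JUNB was at -0.158 from 12 to 24 h, EGR1 at -0.0166 from 24 to 48 h, NR4A1 at -0.0361 in Dox at 48 h and JUN at 0.00884 in NoDox at 24 h. JUN there was at 0.00390 with no filter and at 0.000358 with only the groups compared. With each replicate left out, the range was -0.00186 to 0.316 for EGR3, -0.0773 to 0.0376 for IER3 and -0.0302 to 0.105 for NR4A1 in Dox at 48 h, and -0.0195 to 0.0789 for ATF3 in NoDox at 12 h. It was -0.0514 to 0.0149 for JUN in NoDox at 24 h, -0.239 to 0.00470 for EGR1 and -0.136 to 0.0805 for FOS in NoDox at 48 h. For the differences it was -0.0199 to 0.113 for JUNB (12 to 24 h) and -0.0867 to 0.157 for EGR1 (24 to 48 h).

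With each replicate left out, 0 to 1 members were higher and 1 to 4 lower in NoDox at 24 h, and 1 to 2 were lower in NoDox at 48 h. In the differences 0 to 1 were lower from 12 to 24 h and 1 to 4 higher from 24 to 48 h. Over all genes, library totals gave 1914 higher and 5719 lower from 12 to 24 h in place of 3157 and 2917, and 1017 and 2835 in Dox at 48 h in place of 1814 and 1757. Depth limits EGR3 most, with 9 to 133 counts per library.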
